A study of Mus musculus with 6106 samples.

Results

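The 9 chemokine receptor genes Ccr2, Ccr3, Ccr4, Ccr6, Ccr7, Ccr8, Cxcr3, Cxcr4 and Cxcr6 were examined in regulatory T cells (Tregs) of the mouse spleen, out of 23725 genes in the count table. The genes were chosen by name, and all 9 were in the table. Tregs are the CD4 T cells that carry the transcription factor Foxp3 and restrain other lymphocytes. The cells came from male B6 mice, 10 months old, of the strain Nr4a1-Gfp Foxp3-Ires-Thy1.1, in which GFP reports Nr4a1, an early target of T cell receptor (TCR) signalling, and surface Thy1.1 reports Foxp3. Spleen cells that were DAPI- TCRb+ CD4+ FoxP3-Thy1.1+ were sorted by GFP into GFPlow (0 to 20% of the GFP range, as the labels give it), GFPmed (40 to 60%) and GFPhigh (80 to 100%). All bins share both reporters, age, sex and tissue, no treatment is named, and the number of mice behind a bin is not given in the sources used here. Each bin was made into 1 inDrops library, a droplet method in which each transcript carries a cell barcode and a unique molecular identifier (UMI). With 1 library a bin, no test between bins was possible, and all intervals below are 95% intervals that cover counting error only.

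Chemokine receptors are membrane proteins that couple to inhibitory G proteins and steer cells along gradients of chemokines. Naive-like and resting T cells enter and stay in lymphoid T cell zones through Ccr7, whereas antigen-experienced T cells take up receptors for inflamed or barrier tissue. In Tregs such receptors place the cells beside the responses that they restrain.

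The table held 6106 cells. Cells with at least 500 UMIs were kept, which left 5435 cells: 1537 GFPmed, 1775 GFPhigh and, for the rest, GFPlow. Their UMIs summed to 2435870 in GFPlow, 2512277 in GFPmed and 2270376 in GFPhigh. GFPmed cells were the deepest, with a mean of 1635 UMIs a cell against 1147 in GFPlow and 1279 in GFPhigh. All 12 Treg markers were detected in each bin, and 87.9% to 91.7% of cells had at least 2 UMIs of them. Of the TCR response list, 11 of 11 measured genes were at least 1.5-fold higher in GFPhigh than in GFPlow, beside 9.79% of all measured genes. That list holds Nr4a1, whose reporter set the bins, and was chosen with earlier results of these data known. The count is therefore no independent check of the sort. Marker UMIs of other cell types moved with the bins: the myeloid list stood at 75.1, 224.1 and 81.5 UMIs per 1000000 UMIs of the bin (UPM) in GFPlow, GFPmed and GFPhigh, with S100a8 and S100a9 at 0 in all 3. The erythroid list stood at 163.8, 318.0 and 187.2 UPM and the plasma cell list at 100.6, 66.9 and 325.9 UPM. The B cell list lay between 73.5 and 95.9 UPM, with Pax5 at 0 throughout. At least 2 UMIs of the CD8 T or NK list were in 0.47%, 1.496% and 0.51% of cells. Any pair of libraries shared 20 to 29 cell barcodes.

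Receptor transcripts were sparse. Between 64.2% and 70.5% of the cells of a bin had no UMI of any of the 9 genes. Ccr2, Ccr4, Ccr6, Ccr7, Cxcr3 and Cxcr4 had at least 50 UMIs over the 3 bins, the minimum for a gene to be compared across the table, which 8633 genes met. Cxcr6 with 35, Ccr3 with 26 and Ccr8 with 11 UMIs did not reach it. Their values are given below without a place in the counts. Levels are UMI counts from oligo dT priming and were not scaled by transcript length, so they are compared between bins for 1 gene and not between genes.

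Most of the genes lie on mouse chromosome 9 (mm10), and 3 of them are close together: Cxcr6 at chr9:123806475-123811760, Ccr3 at chr9:124021972-124031689 and Ccr2 at chr9:124101950-124113557, all on the plus strand. Ccr3 ends 70261 bases before Ccr2 begins, and Cxcr6 lies inside Fyco1, a gene of the opposite strand with 44, 53 and 51 UMIs in GFPlow, GFPmed and GFPhigh. Ccr4 (chr9:114490316-114504916, minus strand) and Ccr8 (chr9:120092114-120094906, plus strand) are farther off. The remaining genes are Ccr6 (chr17:8236043-8257141, plus), Ccr7 (chr11:99144196-99155077, minus), Cxcr3 (chrX:101731535-101734269, minus) and Cxcr4 (chr1:128588199-128592293, minus).

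Promoters are shown for Ccr2, its neighbour Ccr3, Ccr4 and Cxcr3, the receptors whose transcripts stood lower in GFPhigh than in GFPlow with an interval that did not include equality. Each sequence is the 250 bases before the RefSeq start site (GRCm38.p6), 5′ to 3′ on the strand of the gene. Capitals mark matches to 9 short motifs, each searched on both strands. For nuclear receptors of the NR4A family the letters were AAAGGTCA, and for the AP-1 factors of activated T cells they were TGANTCA, a near-palindrome that can match on both strands at once. For T-box factors the letters were GGTGTGA, for Krüppel-like factors (KLF) they were CCACCC, for Runx factors they were TGTGGT, and for the factor family of Gata3 they were AGATAA. For the family of Tcf7 and Lef1 the letters were CTTTGA, for that of Foxo1 they were GTAAACA, and for STAT factors they were TTCNNNGAA. RefSeq windows were found for 8 of the 9 genes, not for Ccr7. The RefSeq start sites of Ccr2, Ccr4 and Cxcr3 lie inside the gene models given above. The Ccr4 window, chr9:114496545-114496794, therefore lies wholly within its gene model, and the Ccr2 and Cxcr3 windows lie partly within theirs.
Ccr2, chr9:124101933-124102182, plus strand: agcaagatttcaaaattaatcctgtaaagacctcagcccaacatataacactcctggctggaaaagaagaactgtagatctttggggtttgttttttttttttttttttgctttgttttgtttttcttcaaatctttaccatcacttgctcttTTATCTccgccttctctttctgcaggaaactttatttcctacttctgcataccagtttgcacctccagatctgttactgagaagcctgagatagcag
Ccr3, chr9:124021721-124021970, plus strand: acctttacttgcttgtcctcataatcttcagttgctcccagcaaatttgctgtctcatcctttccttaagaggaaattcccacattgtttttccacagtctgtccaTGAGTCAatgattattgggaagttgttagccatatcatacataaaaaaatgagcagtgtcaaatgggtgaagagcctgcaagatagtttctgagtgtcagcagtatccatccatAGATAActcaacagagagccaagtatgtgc
Ccr4, chr9:114496545-114496794, minus strand: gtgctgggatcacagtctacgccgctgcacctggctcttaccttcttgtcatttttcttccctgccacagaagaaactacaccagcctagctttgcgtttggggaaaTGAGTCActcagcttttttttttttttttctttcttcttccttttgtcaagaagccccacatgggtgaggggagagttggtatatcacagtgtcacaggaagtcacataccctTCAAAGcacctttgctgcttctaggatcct
Cxcr3, chrX:101734148-101734397, minus strand: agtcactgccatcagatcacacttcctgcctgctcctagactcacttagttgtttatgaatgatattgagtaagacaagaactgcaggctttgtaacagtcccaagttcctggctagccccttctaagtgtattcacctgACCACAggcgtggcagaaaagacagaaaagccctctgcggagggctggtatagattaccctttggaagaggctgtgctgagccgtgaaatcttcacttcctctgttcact
The Ccr3 and Ccr4 windows each hold the AP-1 letters TGAGTCA, with their first base at position -144 in Ccr3 and -143 in Ccr4, counted back from the start site. AP-1 letters occur in 6.75% of the 32851 promoter windows of the same length in the table. The Gata letters stand in the Ccr2 window, reversed as TTATCT at -97, and in the Ccr3 window at -30, and are found in 9.99% of all windows. The Cxcr3 window holds 1 Runx match, at -110, a motif of 14.1% of windows, and the Ccr4 window holds 1 Tcf/Lef match, at -30, a motif of 13.8%. NR4A letters, in 1.34% of windows, were in none of these 4. A match describes letters only.

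Ccr2 differed most with GFP among the 6 receptors compared. Ccr2 binds Ccl2 and related chemokines and is known for drawing monocytes and activated T cells to inflamed tissue. Its UMIs numbered 241, 32 and 3 across GFPlow, GFPmed and GFPhigh, or 98.9 (86.8 to 112.2), 12.7 (8.71 to 18.0) and 1.32 (0.27 to 3.86) UPM. The 3 intervals do not overlap, in the order GFPlow, GFPmed, GFPhigh. The log2 ratio was -6.01 (-8.51 to -4.66) for GFPhigh over GFPlow, -2.94 (-3.54 to -2.42) for GFPmed over GFPlow and -3.07 (-5.62 to -1.59) for GFPhigh over GFPmed. For ratios 0.5 UMI was added to both counts.

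The GFPlow transcripts of Ccr2 were concentrated in few cells with several UMIs each. There 5.28% of cells had Ccr2, with 2.15 UMIs a cell and up to 8 in 1 cell, and 58 of them had at least 2 UMIs and held 77.6% of the Ccr2 UMIs. In contrast the 3 UMIs of GFPhigh were in 3 cells. With every cell thinned to 500 UMIs, 3.44% (2.71 to 4.30%) of the GFPlow library, 0.65% (0.31 to 1.19%) of GFPmed and 0.11% (0.01 to 0.41%) of GFPhigh had a Ccr2 UMI, and 1.30% of GFPmed and 0.17% of GFPhigh cells did without thinning. Background was read from 64 cells marked by B cell or erythroid genes (median 1446 UMIs, against 1206 in the others), of which 2 had Ccr2, both erythroid-marked. That share of 3.13% (0.38 to 10.8%) is too imprecise to bound the shares of the bins, so the levels carry the comparison.

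Part of the Ccr2 signal of GFPmed lay in cells with markers of other types. Of its 32 UMIs, 18 (56.2%) were in cells with at least 2 UMIs of other cell type markers, 14 of them in cells with myeloid markers. In GFPlow 22 of 241 UMIs (9.13%) were in such cells, and in GFPhigh 0 of 3. Without those cells the log2 ratio of GFPmed over GFPlow was -3.87, that of GFPhigh over GFPlow -5.80 and that of GFPhigh over GFPmed -1.93.

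Ccr3, the eotaxin receptor best known from eosinophils and type 2 responses, was found with Ccr2. Across GFPlow, GFPmed and GFPhigh it had 23, 3 and 0 UMIs, or 9.44 (5.99 to 14.2), 1.19 (0.25 to 3.49) and 0 (up to 1.63) UPM. Set against a floor of 3 counts in the GFPhigh library, Ccr3 was at least 7.15-fold higher in GFPlow. Of its 17 positive GFPlow cells 10 also had Ccr2. Of the receptor genes that lie near Ccr2 and Ccr3, a pair was also read, chosen for their position. Xcr1 had 37, 45 and 38 UMIs in GFPlow, GFPmed and GFPhigh, and Ccr1 had 1, 3 and 0.

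Cxcr3, the receptor for the interferon-induced chemokines Cxcl9 and Cxcl10 and a mark of type 1 T cell responses, was lower in both brighter bins. It stood at 59.1 (49.9 to 69.6), 30.2 (23.8 to 37.9) and 25.99 (19.8 to 33.5) UPM in GFPlow, GFPmed and GFPhigh, with 76 UMIs in GFPmed and 59 in GFPhigh. GFPlow stands apart, and GFPmed and GFPhigh overlap. The log2 ratio was -1.18 (-1.65 to -0.74) for GFPhigh over GFPlow, -0.96 (-1.39 to -0.56) for GFPmed over GFPlow and -0.22 (-0.74 to 0.29) for GFPhigh over GFPmed. In thinned cells the share with Cxcr3 was 2.40%, 1.76% and 0.96% (4.85%, 3.19% and 2.70% unthinned), against 1 of the 64 background cells (1.56%, 0.04 to 8.401%).

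Ccr4, which binds Ccl17 and Ccl22 and is linked to skin homing and to contact with dendritic cells, had 78, 25 and 24 UMIs. Its levels were 32.02 (25.3 to 39.96), 9.95 (6.44 to 14.7) and 10.6 (6.77 to 15.7) UPM in GFPlow, GFPmed and GFPhigh, so that GFPlow was higher and the brighter bins did not differ beyond counting error. The log2 ratio was -1.58 (-2.32 to -0.92) for GFPhigh over GFPlow, -1.67 (-2.40 to -1.02) for GFPmed over GFPlow and 0.09 (-0.78 to 0.96) for GFPhigh over GFPmed. Unlike Ccr2, Ccr4 was mostly seen as a single UMI, with 1.08 UMIs in each of 72 positive GFPlow cells. Thinned shares were 1.13%, 0.65% and 0.51% (3.39%, 1.496% and 1.18% unthinned), with 0 of 64 background cells, which allows up to 5.60%.

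Ccr6, the receptor for Ccl20 at mucosal surfaces, had 35, 11 and 19 UMIs, or 14.4 (10.01 to 19.98), 4.38 (2.19 to 7.83) and 8.37 (5.04 to 13.1) UPM. Only GFPlow and GFPmed had intervals that did not overlap. Its log2 ratio was -0.76 (-1.67 to 0.07) for GFPhigh over GFPlow, -1.67 (-2.84 to -0.70) for GFPmed over GFPlow and 0.91 (-0.21 to 2.15) for GFPhigh over GFPmed. B cells also express Ccr6, and of the 40 B cell-marked cells 4 had it unthinned (10.0%, 2.79 to 23.7%), above the 0.59% to 1.51% of cells of the bins. Those marker-bearing cells held 1, 3 and 1 of the Ccr6 UMIs of GFPlow, GFPmed and GFPhigh, counted at 2 or more B cell marker UMIs.

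The last pair of tissue receptors, Cxcr6 and Ccr8, can only be described. Cxcr6 binds Cxcl16 and marks tissue-resident T cells. It had 20, 1 and 14 UMIs, or 8.21 (5.01 to 12.7), 0.40 (0.01 to 2.22) and 6.17 (3.37 to 10.3) UPM, so that GFPmed was the low bin and the outer bins overlapped. Ccr8, the Ccl1 receptor associated with activated Tregs of tissues and tumours, had 1, 3 and 7 UMIs, at 0.41 (0.01 to 2.29), 1.19 (0.25 to 3.49) and 3.08 (1.24 to 6.35) UPM. Its order was opposite to that of Ccr2, but all 3 intervals overlap, and the log2 ratio of GFPhigh over GFPlow was 2.42 (-0.05 to 8.403).

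Ccr7, the receptor for Ccl19 and Ccl21 that guides cells into T cell zones, stood at nearly the same level in all bins. With 617 UMIs in GFPlow and 653 in GFPmed, it stood at 253.3 (233.7 to 274.1), 259.9 (240.4 to 280.6) and 260.3 (239.7 to 282.2) UPM in GFPlow, GFPmed and GFPhigh. The log2 ratio of GFPhigh over GFPlow was 0.04 (-0.13 to 0.20), an interval that reaches a difference of 0.20 and no more on the log2 scale. In thinned cells 10.2%, 11.3% and 11.4% had a Ccr7 UMI (20.4%, 27.2% and 22.03% unthinned), against 2 of the 64 marked cells (3.13%, 0.38 to 10.8%). Both were among the 40 with B cell markers, and 0 of the 24 with erythroid markers had it (up to 14.25%). Whether the B cell-marked cells held background or Ccr7 of their own was not tested.

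Cxcr4, the Cxcl12 receptor of marrow, follicle and stromal niches, was lowest in GFPmed. It had 99, 67 and 94 UMIs, or 40.6 (33.03 to 49.5), 26.7 (20.7 to 33.9) and 41.4 (33.5 to 50.7) UPM. The interval of GFPmed overlaps slightly with those of the outer bins. The log2 ratio was 0.03 (-0.40 to 0.45) for GFPhigh over GFPlow, -0.60 (-1.08 to -0.15) for GFPmed over GFPlow and 0.63 (0.17 to 1.11) for GFPhigh over GFPmed. Of the GFPhigh UMIs 22.3% were in cells with markers of other types, against 13.1% in GFPlow and 14.9% in GFPmed, and 4 of the 40 B cell-marked cells had Cxcr4 after thinning (10.0%, 2.79 to 23.7%) against 1.43% to 2.21% of cells in the bins. Without such cells the GFPhigh over GFPmed ratio was 0.48 and that of GFPmed over GFPlow -0.54, neither of them 1.5-fold any longer. The latter was also under 1.5-fold with TMM scaling (-0.56), with equal weight per cell (-0.57) and with cells of at least 1000 UMIs (-0.43). Beyond that, the part of such cells in the difference was not tested.

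**Figure D1:**
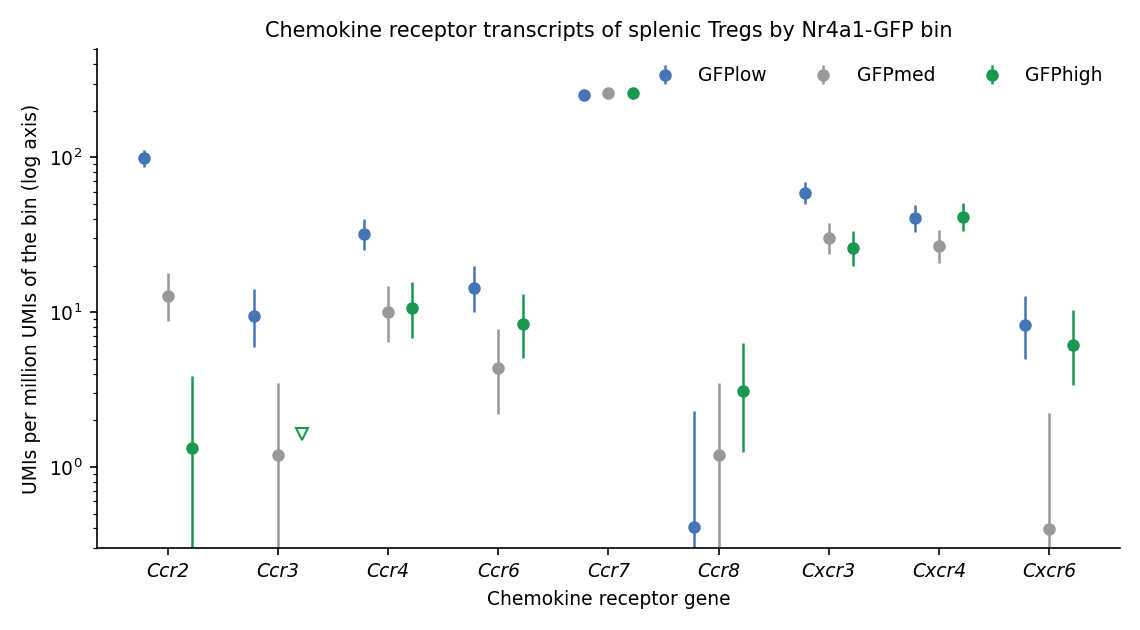
Levels of the 9 receptor genes in UMIs per 1000000 UMIs of a bin (log axis) for GFPlow, GFPmed and GFPhigh, 1 library each; bars are exact Poisson 95% intervals, cut off at the axis, and the open triangle is the upper limit for Ccr3, which had 0 UMIs in GFPhigh. Ccr2 runs from 98.9 in GFPlow to 1.32 in GFPhigh, while Ccr7 stays between 253.3 and 260.3.

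Across the 6 receptors with at least 50 UMIs, differences of at least 1.5-fold were counted. That minimum sums all 3 bins, and Ccr2, Ccr4 and Ccr6 reached it only with their GFPlow UMIs (241, 78 and 35). Ccr8, with 1, 3 and 7 UMIs in GFPlow, GFPmed and GFPhigh, did not reach it. The minimum thus favours receptors high in GFPlow, and the counts are given as description only. From GFPlow to GFPhigh 4 of 6 were lower (Ccr2, Ccr4, Ccr6 and Cxcr3) and 0 higher, where 6.49% of all 8633 genes were lower and 9.79% higher. From GFPlow to GFPmed 5 of 6 were lower (the same 4 and Cxcr4) and 0 higher, where 6.14% of all genes were lower and 5.61% higher. From GFPmed to GFPhigh 2 were higher (Ccr6 and Cxcr4) and 1 lower (Ccr2), where 8.53% of all genes were higher and 4.51% lower. The median log2 ratio of the 6 was -0.97, -1.31 and 0.05 for these 3 steps, beside 0.04, -0.04 and 0.08 over all genes. The interval of Ccr6 includes equality in the steps to GFPhigh. The 5 lower in GFPmed than GFPlow became 4, without Cxcr4, under TMM scaling. With cells of at least 1000 UMIs, 3 receptors were counted as lower in GFPmed than GFPlow, and 1, Cxcr4, as higher in GFPhigh than GFPmed. Ccr6 left these counts through the minimum of 50 UMIs, since its log2 ratios there, -1.52 and 0.64, still passed 1.5-fold. Without cells bearing markers of other types, 1 receptor, Ccr6, was higher in GFPhigh than GFPmed.

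**Figure D2:**
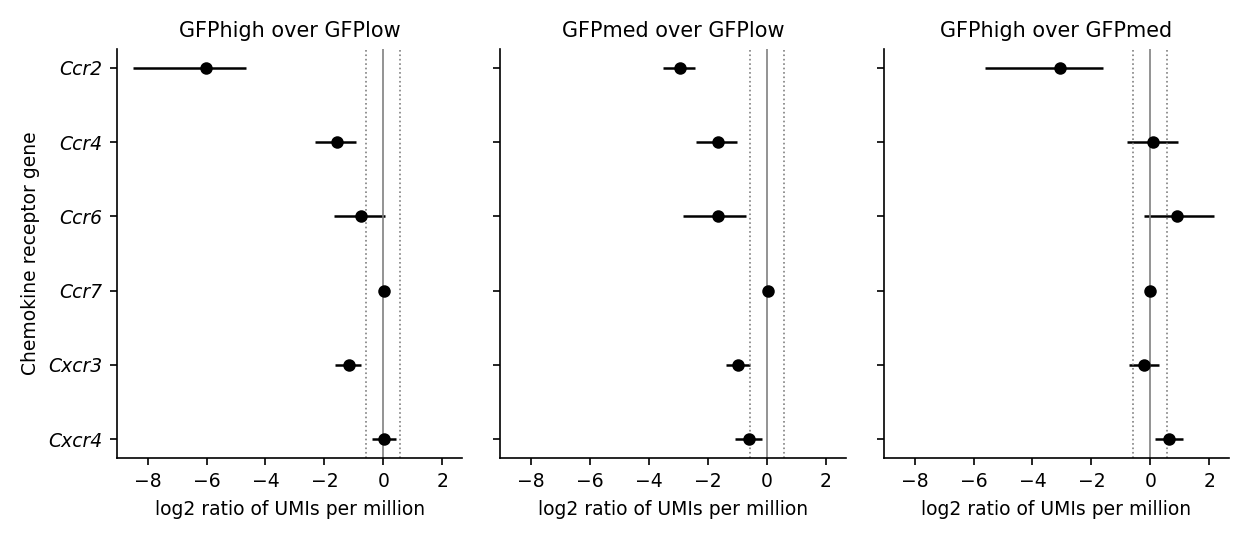
Log2 ratios of UPM levels between bins for the 6 receptors with at least 50 UMIs; points are ratios, bars exact conditional binomial 95% intervals, dotted lines a 1.5-fold difference. Ccr2 lies far to the left in all 3 panels (-6.01, -2.94 and -3.07), and Ccr7 lies at 0.04, 0.04 and 0.00.

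The receptors were next set against the state of each cell within its own library. Effector Tregs raise a shared set of cytoskeletal, S100 and adhesion genes, so cells with at least 3 of 500 UMIs from a 13-gene effector list (S100a4, S100a6, S100a10, S100a11, Lgals1, Itgb1, Vim, Anxa2, Crip1, Ahnak, Klrg1, Il1rl1 and Itgae) were called the effector range. It holds none of the receptors, and it is a range and not a cell type. It took in 25.8%, 13.1% and 9.69% of the cells of GFPlow, GFPmed and GFPhigh. Cells exactly at the minimum made up 8.67%, 6.31% and 5.46% of a bin, and cells 1 UMI below it 14.7%, 13.4% and 12.1%. The median depth inside was 0.93, 0.90 and 1.11 times that outside. The median of the TCR response list was 0 UMIs inside and outside in GFPlow and GFPmed, and in GFPhigh it was 1 inside and 0 outside.

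Ccr2 was mainly an effector-range transcript in GFPlow and was scarce inside that range in GFPhigh. In GFPlow Ccr2 stood at 326.2 (282.1 to 375.1) UPM inside and 24.5 (17.9 to 32.8) outside, and 81.3% of its UMIs were inside. In GFPmed the levels were 48.4 (27.1 to 79.8) inside and 7.72 (4.50 to 12.4) outside. Of these 32 GFPmed UMIs, 18 were in cells with markers of other types, as given above. How those UMIs split over the range was not tested. In GFPhigh there were 0 Ccr2 UMIs among the 228601 UMIs of the 172 effector-range cells, and 3 outside. Against a floor of 3 counts there, or 13.1 UPM, the effector-range level was at least 24.9-fold higher in GFPlow. So the difference between bins was present inside the range as well as outside it, where the ratio of GFPhigh over GFPlow was -3.86 (-6.39 to -2.42).

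Cxcr3 was higher inside the effector range in every bin at this minimum. It stood at 131.5, 90.3 and 100.6 UPM inside in GFPlow, GFPmed and GFPhigh, and at 35.4, 21.8 and 17.6 outside. The log2 ratio of inside over outside was 1.89 (1.40 to 2.39), 2.06 (1.32 to 2.75) and 2.52 (1.69 to 3.31). At a minimum of 4 UMIs the GFPmed ratio, 0.999 (-0.26 to 1.94), included equality. Inside the range the GFPhigh over GFPlow ratio was -0.36 (-1.12 to 0.30), and outside it was -0.998 (-1.64 to -0.40), intervals that overlap.

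Ccr4 was also higher inside the range in GFPlow, at 63.2 (44.8 to 86.8) against 21.8 (15.6 to 29.7) UPM, and in GFPhigh, at 43.7 (20.98 to 80.5) against 6.86 (3.75 to 11.5). In GFPmed only 6 UMIs lay inside. Of the sparse receptors Ccr3 had 20 of 23 and Cxcr6 15 of 20 GFPlow UMIs inside the range, and Ccr8 had 4 of 7 GFPhigh UMIs there. Ccr6 had 19 of its 35 GFPlow UMIs inside (log2 ratio of inside over outside 1.85, 0.82 to 2.91). In GFPhigh 0 of its 19 UMIs were inside, with an upper bound of the ratio at 0.94, an interval that includes equality and overlaps that of GFPlow. Between bins, the GFPhigh over GFPlow ratio of Ccr6 had an upper bound of -0.83 inside the range and was 0.09 (-0.94 to 1.15) outside. Cxcr4 stood at 73.2 against 29.97 UPM in GFPlow (log2 ratio 1.29, 0.68 to 1.89) and 74.4 against 37.7 in GFPhigh (1.01, 0.13 to 1.75). In GFPmed it showed no difference beyond counting error (29.0 against 26.3). At a minimum of 2 UMIs the GFPhigh ratio of Cxcr4, 0.61 (-0.10 to 1.25), included equality.

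Ccr7 showed the opposite distribution. Inside and outside the effector range it stood at 91.5 and 306.3 UPM in GFPlow, at 206.4 and 267.5 in GFPmed, and at 161.9 and 271.3 in GFPhigh. The log2 ratio of inside over outside was -1.73 (-2.17 to -1.34), -0.36 (-0.77 to 0.00) and -0.73 (-1.27 to -0.26), so that Ccr7 was lower inside in the outer bins. The level over a whole bin, flat from GFPlow to GFPhigh, therefore joined an effector range in which Ccr7 was higher in GFPhigh than GFPlow (log2 ratio 0.83, 0.18 to 1.45) with remaining cells in which it was slightly lower (-0.17, -0.35 to -0.0029), in bins with different shares of effector-range cells.

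Cells were also split by an ongoing TCR response, as at least 2 of 500 UMIs from a list of 15 activation genes (Nr4a1, Nr4a2, Nr4a3, Egr1, Egr2, Egr3, Tnfrsf9, Cd83, Irf4, Myc, Ier3, Nfkbid, Bcl2a1b, Bcl2a1d and Tnfrsf4). This range held 5.93%, 7.74% and 17.4% of the cells of GFPlow, GFPmed and GFPhigh. Cells exactly at the minimum made up 3.82%, 4.29% and 8.23% of a bin, and cells 1 UMI below it 12.7%, 16.85% and 21.8%. The median of the effector list was 1 UMI inside and outside in all bins.

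At this minimum Cxcr3 was higher inside the range in each bin, although its level over a whole bin was lower in the brighter bins. It stood at 110.5 (61.8 to 182.2) UPM inside and 56.1 (46.8 to 66.6) outside in GFPlow, at 101.7 (61.2 to 158.7) and 24.5 (18.6 to 31.8) in GFPmed, and at 54.3 (34.03 to 82.2) and 19.8 (13.97 to 27.3) in GFPhigh. The log2 ratio of inside over outside was 1.02 (0.10 to 1.75), 2.08 (1.22 to 2.82) and 1.47 (0.62 to 2.25). At a minimum of 3 UMIs it was 1.22 (-0.36 to 2.27), 0.83 (-1.24 to 2.09) and 1.32 (0.22 to 2.21), so that equality was excluded in GFPhigh alone. Ccr7 was lower inside in each bin, with log2 ratios of -1.02 (-1.85 to -0.37), -0.53 (-1.09 to -0.05) and -0.73 (-1.13 to -0.37). Ccr2, Ccr4, Ccr6 and Cxcr4 had intervals that included equality of inside and outside in every bin at this minimum. For Ccr6 and Cxcr4 that held at 1 and 3 UMIs too, but not for Ccr2 and Ccr4. At 1 UMI Ccr2 was higher inside in GFPmed (1.76, 0.67 to 2.87), and Ccr4 was higher inside in GFPlow (0.89, 0.10 to 1.60) and in GFPhigh (1.46, 0.19 to 2.93). At 3 UMIs the range of GFPlow held 0 Ccr2 UMIs, with an upper bound of -0.38. All 3 Ccr8 UMIs of GFPmed and 2 of 7 of GFPhigh were inside.

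**Figure D3:**
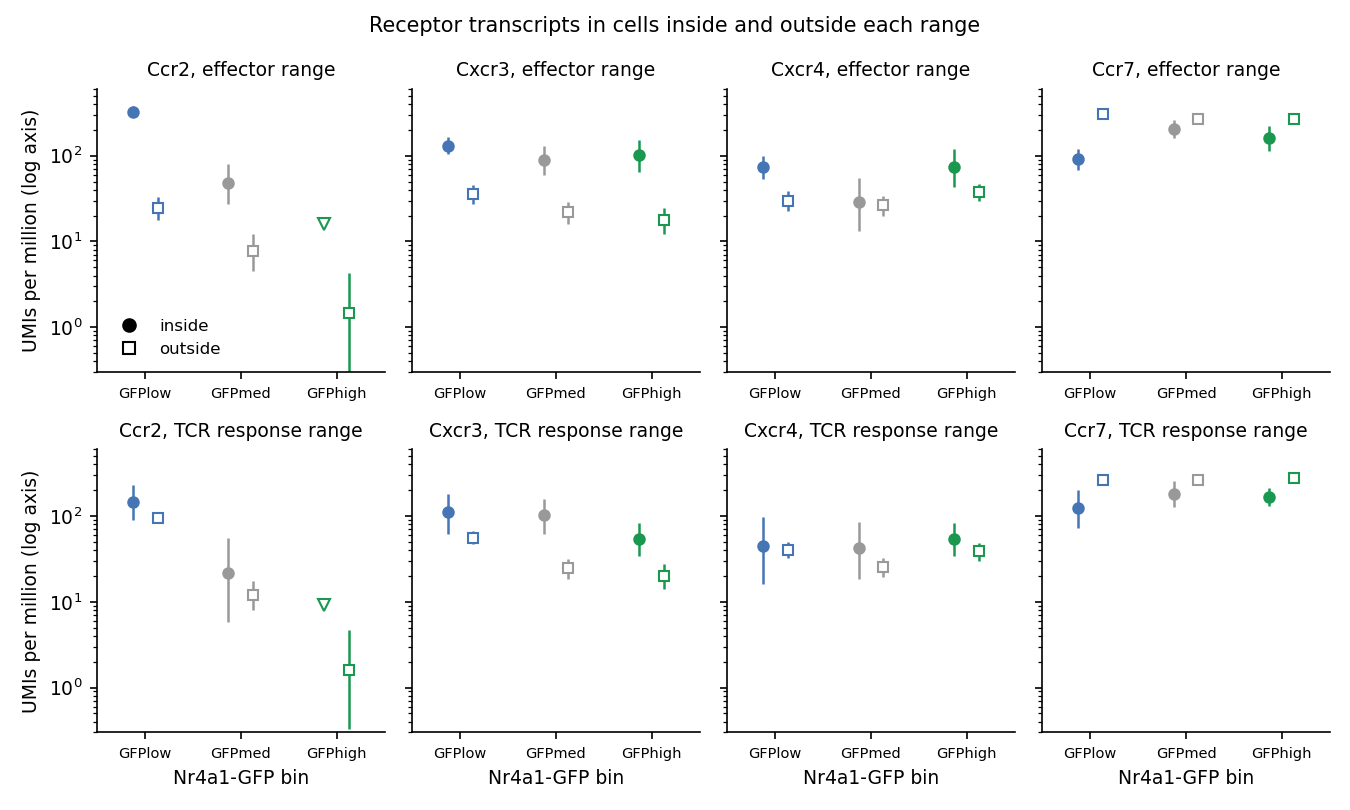
Levels of Ccr2, Cxcr3, Cxcr4 and Ccr7 in UMIs per 1000000 UMIs of the cells (log axis) by bin, in cells inside (filled circles) and outside (open squares) the effector range (top) and the TCR response range (bottom); bars are exact Poisson 95% intervals, cut off at the axis, and open triangles are upper limits where Ccr2 had 0 UMIs. Cxcr3 is higher inside both ranges and Ccr7 lower, and Ccr2 drops with the bin on both sides of each range.

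Receptors were then compared within single cells. Cells with a UMI of 1 receptor were set against the other cells of the same library, and the level of each other receptor was read in both. In GFPlow the Ccr2-positive cells carried more Ccr3 (93.2 against 4.36 UPM), more Cxcr6 (57.3 against 5.23), more Cxcr3 (193.5 against 50.9, 19 cells with both) and more Ccr4 (71.7 against 29.6, 10 cells with both). They carried little Ccr7: only 2 of these cells had it, at 14.3 (1.74 to 51.8) UPM against 267.8 (247.1 to 289.8) in the other cells. The median depth of the cells with and without Ccr2 was 1084 and 1085 UMIs. These cells held 15587 UPM of effector list transcripts against 3401, while the TCR response list differed little, at 587.6 (467.4 to 729.4) against 555.7 (525.6 to 587.0).

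Cxcr3 and Ccr7 were also seldom in 1 cell in GFPlow and GFPhigh. Cxcr3 stood at 28.5 UPM in Ccr7-positive and 68.3 in the other cells of GFPlow (log2 ratio -1.22, -2.11 to -0.51), and at 8.57 against 32.01 in GFPhigh (-1.78, -3.58 to -0.59). In GFPmed it did not differ beyond counting error (-0.16, -0.98 to 0.57), and 13 of the 49 Cxcr3-positive cells had Ccr7. Ccr7-positive cells held less of the TCR response list in every bin, at 363.5, 494.4 and 1184 UPM against 615.6, 853.6 and 1969.

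The pairing of Cxcr3 with Cxcr4 differed between libraries. In GFPlow 0 Cxcr3-positive cells had Cxcr4, at 0 (up to 28.2) UPM against 42.95 (34.9 to 52.3) in the other cells. In GFPmed 4 of 49 such cells did, and in GFPhigh 12 of 48 did, at 177.5 against 36.5 UPM (log2 ratio 2.32, 1.35 to 3.11). The GFPhigh cells with Cxcr3 were deeper than the others, with a median of 1473 against 1120 UMIs, as were those of GFPlow at 1208 against 1080. Of the Cxcr4-positive cells of GFPlow 11 had Ccr7 (log2 ratio -0.31, -1.05 to 0.28), 10 had Ccr2 (1.58, 0.93 to 2.13) and 6 had Ccr4 (1.003, -0.60 to 2.09), so that the interval left out equality for Ccr2 and not for Ccr7 or Ccr4.

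**Figure D4:**
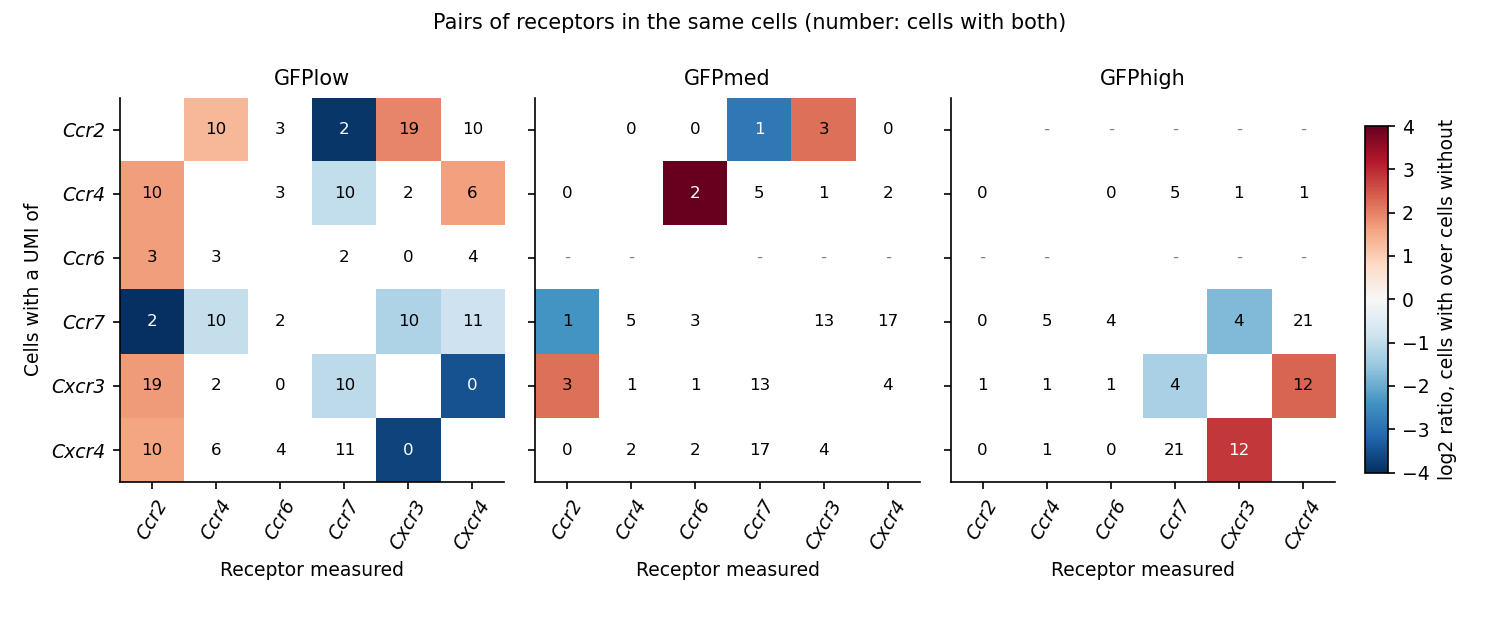
Pairs of receptors in the same cells of each bin: rows are the receptor that selected the cells, columns the receptor measured in them, and the number is the count of cells with both. Colour gives the log2 ratio of the level in cells with over cells without, only where its 95% interval leaves out 0, and dashes mark rows with under 20 selected cells; Ccr2 and Ccr7 share 2 cells in GFPlow, and Cxcr3 and Cxcr4 share 0 in GFPlow and 12 in GFPhigh.

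The genes most like each receptor were ranked over all measured genes by their ratio in receptor-positive over receptor-negative cells, taking the lowest ratio among the libraries with at least 20 positive cells. For Ccr2, over GFPlow and GFPmed, the first 5 were Lgals3 (galectin 3), Gzmb (granzyme B), the lysozymes Lyz1 and Lyz2, and Klrg1, an inhibitory receptor of effector lymphocytes that is also in the effector list. Lgals3 stood at 150.5 against 7.40 UPM and Gzmb at 193.5 against 10.9 in GFPlow. The lysozymes, markers of myeloid cells, had 1 UMI each in the Ccr2-positive GFPlow cells but 92 and 53 in the 20 of GFPmed.

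For Cxcr4, over 3 bins, the first 5 were the cell division genes Nusap1, Ccnb1, Cenpw and Cdca3 and the histone gene Hist2h2ab. Nusap1, a mitotic spindle protein, stood at 115.1 against 3.86 UPM in GFPlow, 48.6 against 7.06 in GFPmed and 59.5 against 4.68 in GFPhigh, from 12, 5 and 8 UMIs in Cxcr4-positive cells. Ccnb1, cyclin B1, stood at 47.9 against 4.29, 38.9 against 7.06 and 37.2 against 4.21 UPM.

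For Cxcr3 the first 5 were Gpm6b, Casp1, Dcun1d4, Lamc1 and Chst2. Casp1, the inflammasome protease, stood at 68.9 against 15.2 UPM in GFPlow, and each of the 5 had between 2 and 9 UMIs in the Cxcr3-positive cells of a bin. For Ccr4 they were Gpc6, Gzma, Podnl1, Runx2 and Rdh18-ps. Gpc6, a glypican, was higher in Ccr4-positive cells of every bin, at 171.6 against 25.97 UPM in GFPlow, 255.4 against 26.7 in GFPmed and 248.7 against 28.5 in GFPhigh. Gzma had no UMI in Ccr4-positive cells of GFPlow or GFPhigh, so its place rests on 8 UMIs of GFPmed. For Ccr7 they were Vhl, Mrrf, Abcd2, Arhgef10 and Kbtbd3, with lowest log2 ratios of only 0.70 to 0.85.

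The other genes of the pathway were read from fixed lists. Of 15 other chemokine receptors 6 had at least 50 UMIs. From GFPlow to GFPhigh 1 was at least 1.5-fold higher and 1 lower, beside 9.79% and 6.49% of all genes. Higher was Ccr9, the gut receptor for Ccl25, with 21 and 38 UMIs (log2 ratio 0.94, 0.15 to 1.80). Lower was Ccrl2, a chemerin-binding receptor, with 22 and 13 UMIs (-0.64, -1.77 to 0.40), an interval that includes equality. Ccr9 overlaps 6 other gene models, so its reads may not all be its own. Xcr1, known from cross-presenting dendritic cells, was at 0.14 on the log2 scale. Among 35 chemokine genes that the files list, 2 had 50 UMIs: Ccl5 at 78.8, 100.3 and 70.9 UPM, and Cxcl10, a ligand of Cxcr3, with 23, 11 and 46 UMIs (log2 ratio 1.09 for GFPhigh over GFPlow).

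Genes that carry the receptor signal differed little. Of 25 measured members, which include G protein subunits and arrestins, 1 was at least 1.5-fold higher and 2 lower in GFPhigh than GFPlow. By that fold 9.79% of all genes were higher and 6.49% lower. The median log2 ratio of the 25 was -0.15, beside 0.04 over all genes. Pik3cg, the catalytic subunit of PI3K gamma, stood at 25.04 and 40.96 UPM in GFPlow and GFPhigh, and Pik3r5, its adaptor, at 47.6 and 21.1. Rasgrp2, which activates the integrin switch Rap1, had a log2 ratio of -0.63, and Dock2, a Rac activator that lymphocytes need for migration, one of -0.57.

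RGS proteins end G protein signals. Of 7 measured, 3 were at least 1.5-fold higher and 1 at least 1.5-fold lower in GFPhigh than GFPlow, where 9.79% of all genes were higher and 6.49% lower by that fold. Rgs10 stood at 189.7, 304.5 and 425.9 UPM in GFPlow, GFPmed and GFPhigh, Rgs3 at 32.8, 50.1 and 60.3, and Rgs16 at 8.62, 7.96 and 29.5. Rgs14 ran the other way, at 107.1, 71.25 and 59.02 UPM.

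Of 13 other homing genes 3 were at least 1.5-fold lower and 0 higher in GFPhigh than GFPlow, beside the same 6.49% and 9.79% of all genes. These were Itgb1, integrin beta 1, at 587.1, 252.8 and 192.9 UPM, Itgae, the E-cadherin-binding CD103, at 48.4, 14.7 and 17.6, and S1pr4, a sphingosine phosphate receptor, at 142.9, 105.5 and 81.5. Itgb1 and Itgae are also members of the effector list. Itgb7, the beta chain of gut-homing integrins, stood at 273.4, 233.7 and 185.9 UPM. Of 13 transcription factors that shape T cell migration and effector states, 4 were at least 1.5-fold higher and 3 lower, beside 9.79% and 6.49% of all genes. Bcl6, of follicular cells, was higher in GFPhigh than GFPlow (8.21 and 21.6 UPM), as was Bach2 (91.96 and 170.5), a repressor of effector genes, while Maf (270.1 and 127.7) and Prdm1 (41.5 and 22.5) were lower.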

How the data were processed

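Splenic Tregs of 3 GFP bins were measured by inDrops, 1 library a bin. The authors deposited a table of UMI counts for genes by cells, not normalized, from NextSeq500 reads. The submitters' processing notes name TopHat2, SAMtools and the mm10 genome. Versions, annotation and the rule for counting UMIs are not given in the sources used here. All columns matched a labelled cell (0 unmatched).

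Cells with at least 500 UMIs were kept (671 of 6106 left out), no doublets were removed, and UMIs were summed over a bin and scaled to 1000000 UMIs (UPM). Log2 ratios used 0.5 added UMI. Intervals are exact Poisson (levels), conditional binomial (ratios) and Clopper-Pearson (shares). Genes with at least 50 UMIs were counted, at 1.5-fold. Thinning drew 500 UMIs a cell without replacement. Zero counts take a floor of 3 counts. The ratio and thinning steps were tested on simulated data. Positions are from GENCODE M21, promoters from RefSeq GRCm38.p6. Python 3.11.15, SciPy 1.17.1 and, for TMM factors, edgeR 4.0.16 were used.

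The receptors and lists were chosen with earlier results of these data known. Some genes, and results that rest on them, are not reported here. Named genes were the 9 receptors, the 5 genes most like each receptor that had at least 20 positive cells in at least 2 libraries, and up to 4 genes of each list with the largest GFPhigh over GFPlow ratio.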

Additional observations from a re-analysis of the deposited data

How the results depend on the processing

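The 4 receptors lower in GFPhigh than GFPlow stayed at 4 or became 3 (cells of at least 1000 UMIs, a fold of 2, genes of at least 100 UMIs) or 5 (genes of at least 1 UMI). Admitting genes with at least 1 UMI raised the higher counts to 1 for GFPhigh over GFPlow and 1 for GFPmed over GFPlow, and gave 4 higher and 2 lower for GFPhigh over GFPmed. From GFPlow to GFPmed 3 were lower with cells of at least 1000 UMIs, and 3 at a fold of 2. They numbered 4, with the call of Cxcr4 lost, under TMM scaling, with equal weight per cell and without cells with markers of other types, and also 4 with genes of at least 100 UMIs. The 2 receptors higher in GFPhigh than GFPmed became 1 with TMM scaling, with cells of at least 1000 UMIs, with equal weight per cell, without cells with markers of other types, and with genes of at least 100 UMIs, and 0 at a fold of 2. Of the recomputed log2 ratios 215 stayed inside their counting interval and 1 did not, Ccr2 for GFPmed over GFPlow at -3.87 without cells with markers of other types. No called ratio changed sign. Log2 ratios of GFPhigh over GFPlow ran from -6.44 to -5.54 for Ccr2, -1.66 to -1.49 for Ccr4, -1.31 to -1.17 for Cxcr3 and -0.06 to 0.11 for Ccr7. Other minimums of the ranges moved 9 of 72 inside over outside ratios past their counting interval. Around the effector range these were Ccr2 in GFPlow (3.13 at 2 UMIs), Ccr7 in GFPlow (-0.997 at 2 and -2.23 at 4) and GFPhigh (-1.38 at 4), and Cxcr3 in GFPmed (0.999 at 4) and GFPhigh (1.69 at 2). Around the TCR response range they were Ccr2 in GFPlow (0 UMIs inside at 3) and Cxcr3 in GFPmed (1.13 at 1 and 0.83 at 3). No replicate exists to leave out, and no paired analysis was possible because each bin is 1 library. Depth limits Ccr3, Ccr8 and Cxcr6 throughout, and all shares of cells below the background bounds.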

Other observations

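Cxcr2, a receptor known from neutrophils, had 364, 438 and 367 UMIs in GFPlow, GFPmed and GFPhigh, or 149.4, 174.3 and 161.6 UPM. No other GENCODE M21 gene overlaps it, and the neutrophil markers S100a8 and S100a9 had 0 UMIs in all 3 bins. The annotation used for counting is not given in the sources used here, so whether the reads lie in the Cxcr2 transcript could not be checked. The same holds for Xcr1.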
